A study of Cucumis sativus with 4 samples.

Results

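CONSTANS-like genes were followed in cucumber (Cucumis sativus), in root and in leaf, of plants grown with ample or little nitrogen. The genes were those whose Arabidopsis homologue in the authors' deposited table was COL1, COL2, COL4, COL5, COL9 or COL16. Of these 6 homologues 5 had at least 1 cucumber gene, and 8 of the 18665 genes of the table were assigned to them. COL5 (AT5G57660) had 3 cucumber genes and COL9 (AT3G07650) had 2, while COL2 (AT3G02380), COL4 (AT5G24930) and COL16 (AT1G25440) had 1 each. COL1 (AT5G15850) had 0 genes in the table analysed here. The rule rests on homologue IDs.

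CONSTANS-like proteins are transcription regulators that carry zinc-binding B-box domains near the start and a CCT domain, named after CONSTANS, CONSTANS-like and the clock protein TOC1, near the end. In Arabidopsis, CONSTANS itself measures day length: the circadian clock sets its daily rhythm, light stabilises its protein, and in long days it switches on the flowering signal FT in the leaf phloem. The mRNAs of several relatives follow a daily rhythm as well, so that their level depends on the hour at which tissue is taken. The hour of harvest is not given in the labels. In Arabidopsis COL1 and COL2 are the closest relatives of CONSTANS, COL5 can induce flowering when overexpressed, COL4 and COL9 delay flowering, and COL16 belongs to a subgroup with a single B-box.

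The values come from 4 libraries of plants 28 days after sowing, with 1 library in each group. Control roots and control leaves came from plants fed 5 mM nitrate, and low nitrogen roots and leaves from plants fed 1 mM. Every group was kept in sand under a cycle of 14 h light at 25 °C and 10 h dark at 18 °C. The number of plants behind a library is not given in the labels, and with 1 library per group no difference below has a replicate check, a p-value or a standard error. The salts that replaced nitrate also raised sulfate from 0.25 to 1.45 mM and chloride from 0.2 to 1.8 mM in the low nitrogen solution.

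Expression is given as RPKM, the number of reads divided by the gene's kilobases and by the library's reads in M (mega), which sets genes on a scale per length. The spacing of the deposited values gave depths of 4.23 M reads for control root, 3.98 for low nitrogen root, 2.93 for control leaf and 2.74 for low nitrogen leaf. Whole reads could be recovered for 7 of the 8 genes, all but COL4, and each ratio of those genes is followed by its exact conditional 95% interval, which covers counting error only. For COL2 and both COL9 genes more than 1 length gave whole reads, and the smallest reads were used. Most markers went with the organ labels. The 11 photosynthesis genes summed to 62.8 and 51.7 RPKM in the control and low nitrogen roots, against 59419 and 32058 RPKM in the leaves. The 13 genes of root cell types summed to 1475 and 670 RPKM in the roots and 58.4 and 57.9 RPKM in the leaves. The aquaporin homologue TIP2;2 alone made up 1266 and 529 RPKM of the root sums. Of those averaging 1 RPKM or more, 7 of 8 were lower in leaf past a log2 ratio of 1 in control plants. On low nitrogen 6 of 9 were lower and 1 was higher, AKT1 on scaffold02995, listed at 0 in both roots. The root hair regulator homologue RHD6 was at 16.1 and 21.7 RPKM in root and listed at 0 in both leaf libraries. The median log2 ratio of all genes between low nitrogen and control was 0.04 in root but 0.33 in leaf, so leaf differences are also given relative to that median where it matters.

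In control plants 6 of the 8 CONSTANS-like genes were higher in leaf than in root, taking a log2 ratio of 1 as the limit, 1 was lower and 1 lay within it. Of the 14711 genes compared, 58% were past that limit, 17.6% higher in leaf and 40.4% lower. The median log2 ratio was 2.38 for the 8 genes and -0.65 for all genes compared. In bulk tissue a gene expressed in fewer cells and a gene with less RNA per cell cannot be told apart.

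The steepest leaf preference was that of COL16 on scaffold01357. Its RPKM was 1.30 in control root, 1.55 in low nitrogen root, 182 in control leaf and 54.1 in leaf on low nitrogen. Both leaf libraries stood far above both root libraries, by 140.1-fold in control plants (counting interval 70.9 to 326) and 34.9-fold on low nitrogen (18.0 to 77.3). COL16 belongs to the single B-box group, and a petunia homologue has been described as raising chlorophyll content when overexpressed.

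The COL5 gene on scaffold00894 showed the same contrast between organs. It was at 1.27 RPKM in control root, 0.90 in low nitrogen root, 120.0 in control leaf and 101 in leaf on low nitrogen. The root values rest on 6 and 4 reads, so the gene was barely detected there, and leaf exceeded root 94.5-fold in control plants (43.0 to 259) and 112-fold on low nitrogen (43.3 to 413). Root values of this gene and of COL16 were each within counting error of one another.

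The other COL5 genes lie next to each other in the table on scaffold00905, with 0 genes between them. The first in table order was at 16.2 RPKM in control root, 3.80 in low nitrogen root, 104 in control leaf and 66.5 in leaf on low nitrogen. The second was the most abundant CONSTANS-like gene in all 4 libraries but 1, at 117, 26.1, 597 and 192 RPKM in the same order. In low nitrogen root COL4 and the COL9 gene on scaffold00998 stood above it. In control leaf 99.3% of the table's genes were lower than the second copy. Leaf exceeded root in control plants 6.43-fold for the first copy (5.17 to 8.07) and 5.10-fold for the second (4.71 to 5.53).

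COL2 on scaffold01221, whose Arabidopsis homologue is close to CONSTANS, was scarce. It was at 3.07 RPKM in control root, 1.02 in low nitrogen root, 20.7 in control leaf and 2.37 in leaf on low nitrogen. Control leaf stood apart from the other libraries: it was 6.76-fold above control root (3.90 to 12.4), while control root and low nitrogen leaf, next in order, differed by 1.30-fold with an interval of 0.523 to 3.49. On low nitrogen the leaf value was 2.32 times the root value, on 8 and 5 reads, with an interval of 0.671 to 9.03.

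COL4 on scaffold01144 was the most even of the set. It was at 45.4 RPKM in control root, 39.3 in low nitrogen root, 74.3 in control leaf and 73.6 in leaf on low nitrogen. Leaf exceeded root 1.64-fold in control plants and 1.87-fold on low nitrogen. These lie below a log2 ratio of 1 with the values as deposited and above it, at 1.34 and 1.14, with median ratio scaling (1.35 and 1.18 relative to the median of all genes). No interval is given for COL4, since no whole reads were found for it.

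The COL9 genes were split between the organs. The gene on scaffold00926 was at 5.13 RPKM in control root, 7.93 in low nitrogen root, 23.3 in control leaf and 33.2 in leaf on low nitrogen, so it was 4.54-fold higher in leaf in control plants (3.32 to 6.31). The gene on scaffold00998 was at 25.9, 27.1, 3.27 and 8.36 RPKM in the same order. It was the single member below root in leaf, 7.91-fold lower in control plants (5.05 to 13.0) and 3.25-fold lower on low nitrogen (2.39 to 4.50). Their sum varied less than either gene, at 31.0 RPKM in control root, 35.1 in low nitrogen root, 26.6 in control leaf and 41.6 in leaf on low nitrogen. The scaffold00926 gene made up 16.6% and 22.6% of that sum in the roots and 87.7% and 79.9% in the leaves.

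**Figure D1:**
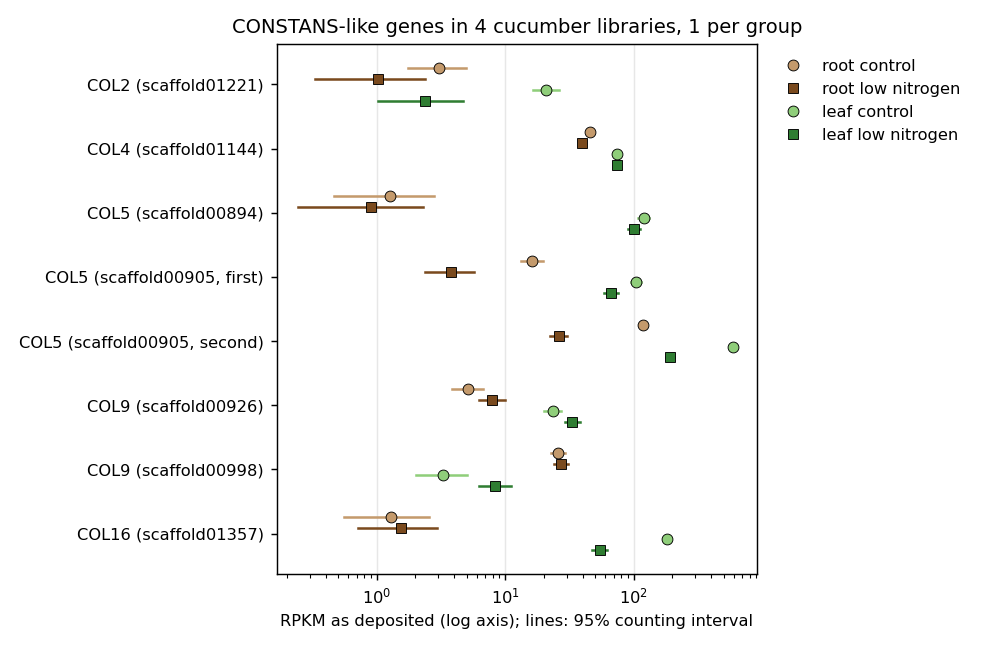
Expression of the 8 CONSTANS-like genes in the 4 libraries, as deposited RPKM on a log axis; circles are control and squares low nitrogen libraries, brown is root and green leaf, and lines are exact 95% counting intervals (none for COL4). Within each solution the leaf value lies to the right of the root value for every gene except COL9 on scaffold00998. For COL2 the low nitrogen leaf value lies left of the control root value. The root values of COL16 and COL5 on scaffold00894 lie near 1 RPKM.

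On low nitrogen 5 of the 8 genes were higher in leaf than in root and 1 was lower. Of 15057 genes compared, 51.2% were past the limit, 20% being higher in leaf and 31.2% lower. The median log2 ratio was 2.39 for the 8 genes and -0.30 for all genes compared. The gene that was no longer past the limit was COL2, at a log2 ratio of 0.74, or 1.03 relative to the median of all genes.

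The question at the centre of the study was how a low nitrogen supply changes expression in each organ. In root 3 of the 8 CONSTANS-like genes were lower on low nitrogen past the same limit and 0 were higher. These were the adjacent COL5 copies and COL2. Of 14532 genes compared in root, 10.5% were past the limit: 4.34% were lower and 6.17% higher. The median log2 ratio was -0.23 for the 8 genes and 0.04 for all genes compared.

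Control root exceeded low nitrogen root 4.48-fold for the second COL5 copy on scaffold00905 (counting interval 3.78 to 5.34, on 777 and 163 reads). It did so 4.27-fold for the first copy (2.67 to 7.12, on 100 and 22 reads). The ratio between the copies was close in the root libraries, with the second 7.21 times the first in control root and 6.87 times in low nitrogen root. All 3 COL5 genes together were at 134 RPKM in control root and 30.8 in root on low nitrogen.

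COL2 was 3.01-fold lower in low nitrogen root (1.05 to 10.5), on 16 and 5 reads. Its log2 ratio of -1.01 barely reached the limit, and it was -0.42 with a pseudocount of 5 RPKM, -0.97 with equal sums without the 20 highest genes and -0.98 with median ratio scaling. COL5 on scaffold00894 (1.41-fold lower, 0.335 to 6.80), COL16 (1.19-fold higher, 0.410 to 3.56) and COL9 on scaffold00998 (1.05-fold higher, 0.873 to 1.26) differed by no more than counting error allows. COL9 on scaffold00926 was 1.55-fold higher (1.07 to 2.24), and COL4 was 1.15-fold lower.

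In leaf 3 of the 8 genes were lower on low nitrogen past the limit and 1 was higher. The lower genes were COL2, COL16 and the second COL5 copy on scaffold00905, and the higher one was COL9 on scaffold00998. Of 13384 genes compared in leaf, 17.2% were past the limit: 3.59% were lower and 13.6% higher. The median log2 ratio was -0.45 for the 8 genes and 0.33 for all genes compared.

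COL2 showed the widest gap, with control leaf 8.75-fold above low nitrogen leaf (4.22 to 21.0, on 75 and 8 reads). COL16 was 3.37-fold lower on low nitrogen (2.89 to 3.93, on 779 and 216 reads). The second COL5 copy was 3.11-fold lower (2.87 to 3.36, on 2749 and 826 reads). These 3 genes were lower under every scaling tried, and relative to the median of all genes their log2 ratios were -3.02, -2.06 and -1.96.

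The first COL5 copy was 1.57-fold lower in low nitrogen leaf (1.35 to 1.84). Its log2 ratio was -0.64 as deposited and -1.08 with median ratio scaling, which puts it past the limit. COL5 on scaffold00894 was 1.19-fold lower (1.02 to 1.39). The makeup of COL5 differed between the leaf libraries: the second copy took 72.7% of their summed RPKM in control leaf and 53.5% in leaf on low nitrogen, and the scaffold00894 gene 14.6% and 28.0%. Within the adjacent pair the second copy was 5.72 times the first in control leaf and 2.89 times in low nitrogen leaf.

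COL9 on scaffold00998 was 2.56-fold higher in low nitrogen leaf (1.51 to 4.47, on 21 and 50 reads). Its log2 ratio of 1.13 became 0.80 relative to the median of all genes, which ends the call. COL9 on scaffold00926 was 1.42-fold higher (1.16 to 1.75), and its log2 ratio of 0.49 became 0.16 relative to that median. COL4 was at nearly the same value in both leaf libraries, with a log2 ratio of -0.01 as deposited and -0.34 relative to the median of all genes.

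**Figure D2:**
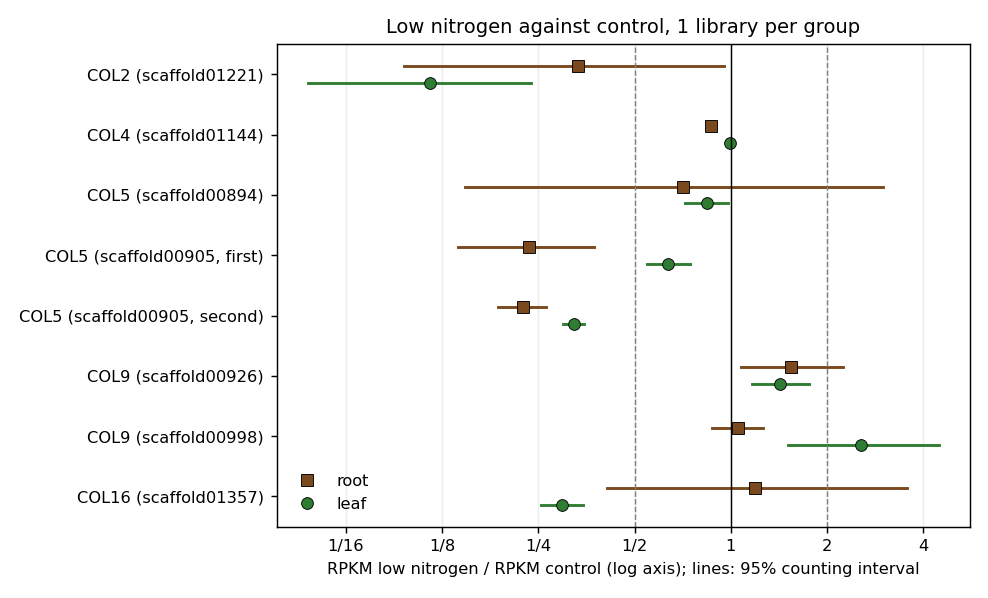
Ratio of low nitrogen to control RPKM for each of the 8 CONSTANS-like genes in root (brown squares) and leaf (green circles) on a log axis, with exact 95% counting intervals (none for COL4) and dashed lines at a ratio of 1/2 and 2. The adjacent COL5 copies lie left of 1 in both organs, COL2 lies farthest left in leaf, COL16 lies left of 1/2 in leaf and near 1 in root, and COL9 on scaffold00998 lies right of 2 in leaf.

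Across organs, the second COL5 copy and COL2 were the genes past the limit on the lower side in both root and leaf with the values as deposited. For COL2 the root log2 ratio of -1.01 barely reached the limit and missed it under some alternatives. Of all genes compared 4.34% were lower in root and 3.59% in leaf, and the share lower in both organs was not computed. Subtracting the root log2 ratio from that of leaf gave -1.88 for COL16 and -1.68 for COL2. COL16 was lower in leaf, while in root it was 1.19-fold higher, within counting error. COL2 was lower by more in leaf, but its fold intervals in root (1.05 to 10.5) and leaf (4.22 to 21.0) overlap. Leaf minus root was 1.20 for the first COL5 copy, which was lower by more in root, and 1.06 for COL9 on scaffold00998. For the other 4 genes it lay between -0.05 and 0.49. None of these differences was tested, since each rests on 1 library per group.

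**Figure D3:**
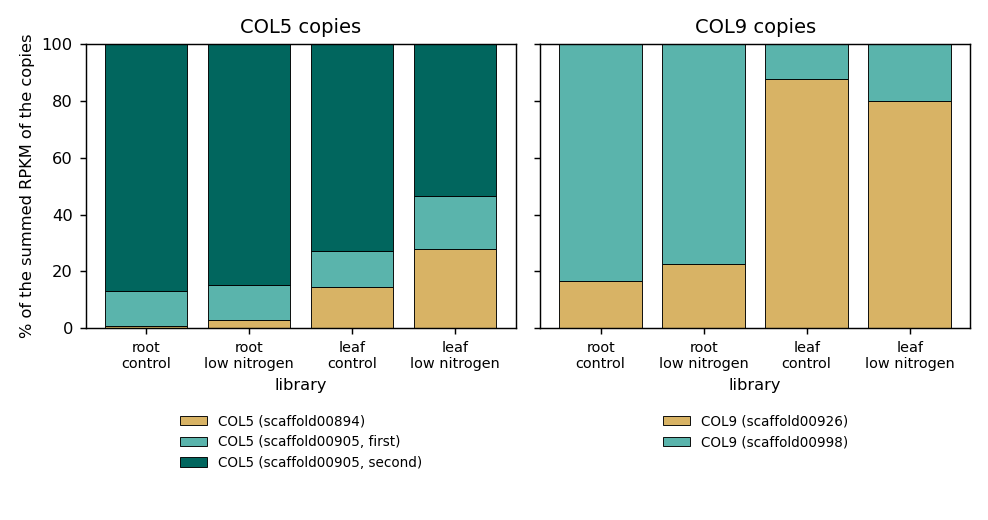
Share of each cucumber gene in the summed RPKM of the COL5 genes (left) and of the COL9 genes (right), as a percentage of the sum in each of the 4 libraries. The second scaffold00905 copy holds 87.0% of COL5 in control root and 53.5% in low nitrogen leaf, and the larger part of COL9 passes from the scaffold00998 gene in root to the scaffold00926 gene in leaf.

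Relatives of the 8 genes were few in the table. Of CONSTANS and the 10 other CONSTANS-like homologues looked for, 3 had cucumber genes, 4 in all. In neither organ was any of them past a log2 ratio of 1 between low nitrogen and control. Of the 4, 2 in root and 3 in leaf reached the 1 RPKM needed for comparison. Over all genes compared 10.5% were past that ratio in root and 17.2% in leaf. COL15 (AT1G28050) measured 24.6 RPKM in control leaf and 50.2 in leaf on low nitrogen, a log2 ratio just under 1. It was past the limit with the library sums made equal or with a pseudocount of 0.1 RPKM. Relative to the median of all genes, and with median ratio or upper quartile scaling, it was within the limit. COL6 (AT1G68520) on scaffold03611 was at 21.8 and 23.4 RPKM in leaf and listed at 0 in both roots.

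B-box genes without a CCT domain, several of which act in Arabidopsis light signalling of seedlings, had 11 cucumber genes. In leaf 1 of the 9 compared was higher on low nitrogen and 2 were lower, against 13.6% and 3.59% of all genes compared. The median log2 ratio was -0.24. BBX18 (AT2G21320) measured 31.7 RPKM in control leaf and 13.2 in leaf on low nitrogen, 2.40-fold lower (1.62 to 3.60). BBX20 (AT4G39070) was at 1.38 and 4.93 RPKM, 3.57-fold higher (1.38 to 10.9), and it was not past the limit relative to the median of all genes. BBX29 (AT5G54470) on scaffold03356 was at 80.0 and 53.8 RPKM. The homologue of STO (AT1G06040), a B-box protein of light signalling, was at 165 and 140 RPKM in leaf and 30.7 and 20.7 in root.

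In root 6.17% of all genes compared were higher on low nitrogen and 4.34% lower. Of the 11 B-box genes 3 were higher in root and 0 lower, with a median of 0.21. Each of these 3 stood below 6 RPKM in both root libraries. Of 6 genes averaging 5 RPKM or more 0 were higher, and 1 of 11 was higher with a pseudocount of 5 RPKM. The intervals of BBX29 on scaffold00542 and BBX31 include 1, and BBX30 has none. BBX19 (AT4G38960) was at 14.4 and 8.09 RPKM, 1.78-fold lower (1.36 to 2.32), and BBX21 (AT1G75540) on scaffold01144 was at 58.9 and 83.0 RPKM.

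Circadian clock genes set the daily rhythm of CONSTANS in Arabidopsis and are the list that bears most directly on the hour of harvest. In root 0 of the 16 compared were past a log2 ratio of 1 in either direction, against 10.5% of all genes compared, with a median of 0.23. Among those averaging 5 RPKM or more, the largest root ratios were those of a pair of GI genes, at 49.9 and 68.4 RPKM on scaffold03611 and 37.0 and 48.7 on scaffold00793, and of RVE6 (AT5G52660) on scaffold00931, at 4.80 and 6.62 RPKM. In leaf 8 of 13 were higher on low nitrogen and 0 lower, against 13.6% and 3.59% of all genes compared. The leaf median was 1.17, and 6 were higher and 1 lower relative to the median of all genes. ELF4 (AT2G40080), of the evening complex, measured 17.8 RPKM in control leaf and 127 in leaf on low nitrogen, 7.15-fold higher (5.23 to 9.98). GI (AT1G22770) on scaffold03611, which promotes CONSTANS transcription in Arabidopsis, was at 62.1 and 193 RPKM, 3.12-fold higher (2.88 to 3.37). ELF3 (AT2G25930) was at 16.7 and 52.6 RPKM.

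The morning gene LHY (AT1G01060) measured 7.56 RPKM in control leaf and 3.56 in leaf on low nitrogen, 2.12-fold lower (1.26 to 3.68). Its log2 ratio of -0.91 lay within the limit as deposited. RVE6 genes went the other way, at 12.8 and 28.6 RPKM in leaf on scaffold00931 and 3.64 and 13.0 on scaffold01335. LNK1 and LNK2 were nearly level, each with a leaf log2 ratio of -0.05. LHY and these genes were named after their values were seen. Clock genes therefore differed between the same leaf libraries as the CONSTANS-like genes. Whether the hour of harvest had a part in the root or leaf values was not tested.

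Other leaf lists moved with the same pair of libraries. Over all genes compared in leaf 13.6% were higher on low nitrogen and 3.59% lower, or 791 and 1005 of 13384 relative to their median. The 11 photosynthesis genes summed to 59419 RPKM in control leaf and 32058 in leaf on low nitrogen, with 4 of 11 lower and 0 higher, or 8 lower relative to the median of all genes. RBCS3B alone made up 36769 and 19432 RPKM of these sums, and the median log2 ratio of the 11 genes was -0.92. The 6 genes of dividing cells summed to 330 and 845 RPKM, with 5 higher and 0 lower, or 4 higher relative to that median. Genes of the phloem, where FT is expressed in Arabidopsis, numbered 20 and summed to 756 and 342 RPKM. Of the 13 compared 3 were higher and 2 lower, with a median of -0.19, or 2 higher and 4 lower relative to the median of all genes. The 2 lower as deposited were PP2-A1 genes, at 266 and 28.0 RPKM on scaffold01154 and 189 and 36.7 on scaffold03443. Genes of the sieve element protein SEOR1 (AT3G01680) differed among themselves. The most abundant, on scaffold04100, was at 237 and 208 RPKM. A SEOR1 gene on scaffold03882 was at 0.43 and 6.33 RPKM, on 3 and 41 reads. Another there was at 4.14 and 2.22 RPKM, on 22 and 11 reads, and its interval of 0.235 to 1.15 includes 1. A SEOR1 gene on scaffold03918 was at 3.10 and 15.7 RPKM, 5.08-fold higher (3.07 to 8.82). SUC2, the sucrose transporter of the phloem, was at 0.49 and 0.26 RPKM.

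In root 2 of the 9 compared genes of root cell types were lower on low nitrogen and 0 higher. The lower ones were the aquaporin homologue TIP2;2, with a log2 ratio of -1.26, and EXPA7, an expansin of root hairs, with -1.94. The other 7 lay within the limit, from -0.89 for PHO1 to 0.40 for RHD6. RHD6, the root hair regulator homologue, thus leaned opposite to EXPA7, though its fold interval of 0.936 to 1.94 includes 1. Of 17 phloem genes 2 were lower, the same PP2-A1 genes with -1.67 and -2.06, and 1 was higher, and their sum was 1207 and 959 RPKM. Of the 6 genes of dividing cells 0 were past the limit in root. Over all genes compared in root 4.34% were lower and 6.17% higher. The marker genes described here were chosen for display after their values were seen, and the part of these lists in the CONSTANS-like values of either organ was not tested.

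The photoperiod pathway around CONSTANS had 26 cucumber genes. In leaf 3 of the 22 compared were higher on low nitrogen and 2 lower, against 13.6% and 3.59% of all genes compared. The leaf median was 0.21 and became -0.12 relative to the median of all genes, where 2 were higher and 3 lower. In root 4 of 24 were higher and 0 lower, against 6.17% and 4.34% of all genes compared, with a median of 0.26. Relative to the median of all genes 3 were higher in root and 1 lower. With a pseudocount of 5 RPKM 0 were higher in root, and the intervals of 2 of the 4, NF-YC3 and NF-YB3 on scaffold01374, include 1. Upstream of CONSTANS, the ubiquitin ligase homologue COP1 (AT2G32950) on scaffold03904, whose Arabidopsis counterpart marks CONSTANS for breakdown in the dark, measured 30.1 RPKM in control leaf and 14.3 in leaf on low nitrogen, 2.11-fold lower (1.66 to 2.70). The COP1 gene on scaffold03264 went the other way, at 7.29 and 9.65 RPKM, 1.32-fold higher (1.06 to 1.66). Its log2 ratio of 0.36 was close to the leaf median of 0.33 over all genes. HY5 (AT5G11260) on scaffold01144, a light signalling regulator that interacts with B-box proteins, was at 22.4 and 61.1 RPKM. CDF1 (AT5G62430), a repressor of CONSTANS transcription, was at 11.3 and 2.53 RPKM in leaf, 4.46-fold lower (2.14 to 10.4).

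Among partners of CONSTANS, TPL (AT1G15750), a corepressor, was higher on low nitrogen in leaf, at 12.9 and 39.1 RPKM, 3.03-fold (2.41 to 3.85), and at 53.3 and 101 RPKM in root, 1.90-fold (1.72 to 2.11). The NF-Y subunit NF-YB3 (AT4G14540) on scaffold00998 was at 20.6 and 9.86 RPKM in root, 2.09-fold lower (1.48 to 2.98). NF-YC3 (AT1G54830) was at 7.53 and 17.6 RPKM in root, 2.34-fold higher with an interval of 0.749 to 8.59.

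The target FT (AT1G65480) measured 6.24 RPKM in control leaf and 3.87 in leaf on low nitrogen, 1.61-fold lower (1.14 to 2.32). In root it was at 1.59 and 4.81 RPKM, 3.03-fold higher (2.02 to 4.65). FT and CDF1 lie under the mean of 5 RPKM that the rule for naming asked for, and were named after their values were seen.

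**Figure D4:**
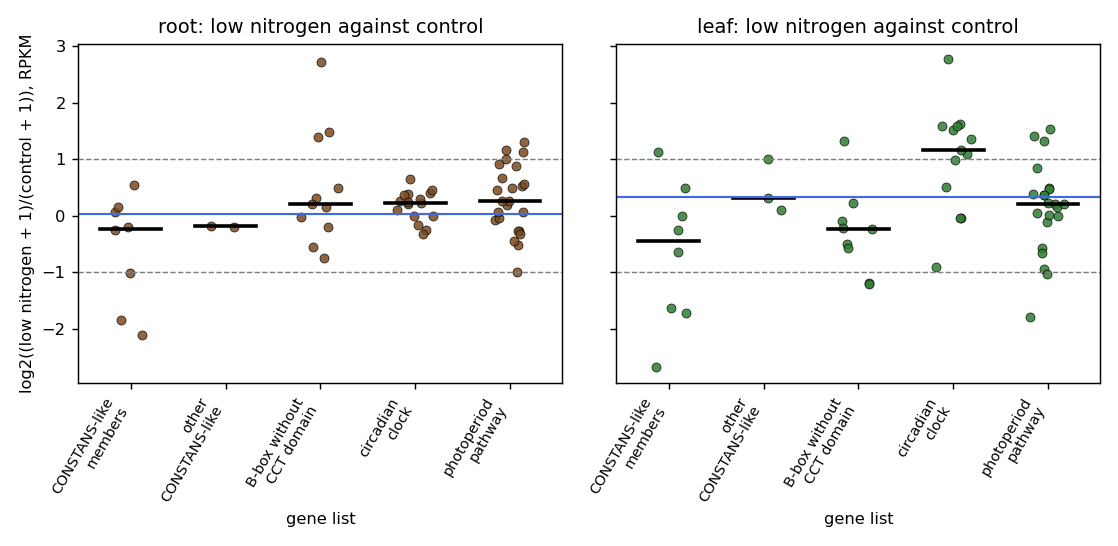
Log2 ratios of low nitrogen to control (RPKM plus 1) in root (left) and leaf (right) for each compared gene of the CONSTANS-like set and of 4 related lists; black bars are list medians, the blue line is the median of all genes compared (0.04 in root, 0.33 in leaf) and dashed lines mark log2 ratios of -1 and 1. The CONSTANS-like genes spread to the lower side in both organs, while the clock genes lie within the dashed lines in root and mostly above the upper one in leaf.

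Profiles over the 4 libraries were compared by the distance between log2 values centred on each gene's own mean, among 4559 genes with a symbol and a mean of at least 5 RPKM. With 4 libraries many genes can lie close, and the distances are a description. Nearest to COL2 were the phloem lectin homologue PP2-A1 (AT4G19840) on scaffold01154, at a distance of 0.60, and the phosphate transporter homologue PHT1;4 (AT2G38940), at 0.85. Nearest to the second COL5 copy were the phosphate signalling gene SPX2 (AT2G26660), at 0.49, and SEN1 (AT4G35770), at 0.53, an Arabidopsis gene induced in darkness and senescence. Among the genes near COL16 was the antenna protein gene LHCA4 (AT3G47470), at 0.35.

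The nearest genes of the remaining members were closer in some cases. COL4 had HOS15 (AT5G67320) at 0.087 and HISN8 (AT5G63890) at 0.096, and COL9 on scaffold00926 had AAE1 (AT1G20560) at 0.076 and MKK9 (AT1G73500) at 0.095. COL9 on scaffold00998 had PLSP1 (AT3G24590) and RPL3B (AT1G61580), both at 0.11. The first COL5 copy had ATPA (ATCG00120) at 0.27 and LOL1 (AT1G32540) at 0.44, and COL5 on scaffold00894 had CZSOD2 (AT2G28190) at 0.14 and AT5MAT (AT3G29590) at 0.29. Among the members themselves the closest pair was the adjacent COL5 copies, at 0.96.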

How the data were processed

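RNA of 4 cucumber libraries was sequenced, 1 per group. The authors deposited 1 table of RPKM values with a gene length, scaffold, symbol and Arabidopsis homologue ID per gene; gene positions are not used here. The submitters' processing notes list Bowtie 0.12.9. Neither the build, nor how reads were counted and which of them scale the RPKM, is stated there or in the labels, so genes of one family may share reads. Names are those of the deposited table or, where it gives none, the usual Arabidopsis name of the homologue ID, and 0 of the table's gene IDs matched the 23999 genes of the RefSeq table. Roles are those of the Arabidopsis genes unless another species is named.

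Log2 ratios used the deposited RPKM plus a pseudocount of 1, which understates ratios of low genes. A gene was compared where both libraries averaged 1 RPKM or more; all 8 members passed in every comparison. Higher or lower means a log2 ratio of at least 1 in size, whereas folds are plain RPKM ratios. Depth was taken as the value at which RPKM times length gives whole reads most often (tolerance 0.00501 RPKM); 1308 of 5498 genes under 2500 bases gave whole reads throughout with the length deposited. For the others, the members included, the smallest reads allowed by any length from 100 bases up were used, which gives the widest intervals. Scripts in Python 3.11.15 with scipy 1.17.1 were tested on simulated data. The members, lists and rules were chosen with earlier results of these data known. Named are all members and, per list and organ, up to 3 genes with the largest low nitrogen ratio at a mean of at least 5 RPKM; others were named after their values were seen. Alternatives were other pseudocounts, filters and scalings, and summing genes of one homologue. 1 gene that the naming rule selects is not reported here.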

Additional observations from a re-analysis of the deposited data

Results flagged for a closer look

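Among the CONSTANS-like genes and the 4 related lists, marker lists left out, a gene is given here where its low nitrogen difference had opposite directions in root and leaf, each past counting error. With 1 library per group these differences between organs were not tested. LHY (AT1G01060), a morning clock gene, was at 31.2 RPKM in control root, 36.7 in low nitrogen root, 7.56 in control leaf and 3.56 in leaf on low nitrogen, a leaf minus root log2 ratio of -1.13. Its root ratio of 1.17 (1.0006 to 1.38) barely passed counting error. Relative to the root median log2 ratio of 0.04 over all genes it did not pass. CDF1 (AT5G62430), a repressor of CONSTANS, was at 0.55, 2.13, 11.3 and 2.53 RPKM in the same order, a leaf minus root log2 ratio of -2.81 that rests on 3 reads in control root. The blue light receptor homologue CRY1 (AT4G08920) was at 61.7, 42.8, 94.2 and 105 RPKM, a leaf minus root log2 ratio of 0.68. Its leaf log2 ratio of 0.16 lies below the leaf median of 0.33 over all genes, so relative to that median CRY1 was lower in both organs. FT (AT1G65480) was at 1.59, 4.81, 6.24 and 3.87 RPKM, a leaf minus root log2 ratio of -1.74. None of the 8 CONSTANS-like genes met this condition.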

How the results depend on the processing

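No paired analysis was possible because each group holds 1 library, and for the same reason no library could be left out. Of the 349 values of single CONSTANS-like genes under the alternatives, 303 moved by less than their counting error and 46 by more (COL4 was set against the interval of the most reads its deposited length allows). The sign changed in 8 of the 349, and none of these was past a log2 ratio of 1 with the values as deposited. In leaf, 0 genes in place of 1 were higher on low nitrogen with a pseudocount of 5 RPKM, relative to the median of all genes, with median ratio scaling, with upper quartile scaling and with genes of one homologue summed. The leaf median log2 ratio was -0.88 with median ratio scaling and -1.19 with homologues summed. In leaf against root of control plants the median was 3.03 relative to the median of all genes. With homologues summed, which leaves 5 units, 3 were higher in leaf and 0 lower in control plants, and 2 were higher and 0 lower on low nitrogen, where the median was 0.89. This follows from the construction, in which the 3 COL5 genes become 1 unit and the COL9 genes, on opposite sides, add to a sum within the limit. The count of genes lower in root was 3, or 2 where COL2 missed the limit or fell to the filter, and 2 with homologues summed, where the COL5 copies count as 1. Root values of COL2, COL16 and COL5 on scaffold00894 rest on 4 to 16 reads, so small root differences of these genes were not detectable at this depth.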
